A study of Homo sapiens with 13 samples.

Results

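Chromosome 19 carries the densest collection of zinc finger genes in the human genome, and their expression was followed here in 11 polyA RNA-seq libraries of MCF10A breast epithelial cells. The members were the coding rows on chromosome 19 with a symbol formed of ZNF and a number, which gave 223 of 20237 coding rows and of 38369 rows in all. The rule used names and positions and no measured value. In 17 rows the authors had merged several neighbouring symbols, so that ZNF626,ZNF93 or ZNF222,ZNF223,ZNF284 is 1 measurement, and ZNF562 was split into 2 rows. For comparison, 281 rows with such symbols lay on other chromosomes and 1101 other coding rows lay on chromosome 19.

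Both experiments used MCF10A, an immortalised, non-transformed line that the labels list under breast cancer. In the tamoxifen time course, MCF10A-Src cells, in which tamoxifen activates an introduced Src kinase, were collected in 1 library before tamoxifen (0 h), 2 after 4 h, 1 after 12 h and 2 after 36 h. All time points are of this 1 derived line, and no library of untreated cells was taken at the later times, so tamoxifen and time in culture cannot be told apart. In the over-expression experiment, parental MCF10A cells were collected 72 h after transduction with the long intergenic RNA LINC00520 (2 libraries) or after a mock transduction that left them untransduced (3 libraries). The 2 libraries of a control lincRNA were not analysed here, so the act of transduction and LINC00520 cannot be told apart. Nothing in the labels says that libraries of a group came from separate cultures, so the p-values rest on a spread among libraries that may be technical.

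A zinc finger gene of this kind encodes a row of short DNA-reading modules, each folded around a zinc ion, and the order of the modules sets the sequence that is bound. Most members on chromosome 19 also begin with a KRAB domain, which recruits the scaffold KAP1 (TRIM28). KAP1 in turn brings the histone methyltransferase SETDB1, heterochromatin proteins and histone deacetylases, and the resulting silencing acts chiefly on transposable elements and on imprinted genes. The genes spread by tandem duplication, which is why they stand in clusters of close relatives. In translated GENCODE reading frames, 168 members matched at least 10 of 14 conserved positions of the KRAB domain and are called KRAB members. A further 34 matched fewer and are called members without KRAB, and 21 were not classed. ZNF446 (9 matches) and ZNF180 (8) came near the cut, which cannot decide whether they have the domain. The number of fingers found ran from 0 to 36, with a median of 12, and 3 members (ZNF274, ZNF444 and ZNF446) carried a SCAN domain, a protein-pairing module.

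The promoters of the family shared letters, and those of the members whose levels moved are shown because they were the sequences most over-represented among the searched ones relative to other promoters. RefSeq (GRCh38.p14) gave the 250 bases before to 50 after the gene start for 180 of 206 members with 1 symbol. The 9 letters TTCTGGGAA, on either strand, stood in 10.6% of these promoters, against 1.09% of all 27305 promoters in the table. They were picked after the promoters had been seen. In 17 of 25 such windows the letters GTAGT began 2 bases further on, and in 4 the letters GGAGT. The window that ZNF790 and ZNF345 share is counted for each of them. Below, every window is printed on the strand that reads TTCTGGGAA, in capitals, for the 8 members that had the letters and passed the test in at least 1 comparison.
ZNF181: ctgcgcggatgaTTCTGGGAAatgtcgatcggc
ZNF546: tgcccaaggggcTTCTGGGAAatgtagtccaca
ZNF224: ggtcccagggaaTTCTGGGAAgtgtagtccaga
ZNF224: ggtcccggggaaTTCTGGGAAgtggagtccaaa
ZNF234: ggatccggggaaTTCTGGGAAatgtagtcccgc
ZNF226: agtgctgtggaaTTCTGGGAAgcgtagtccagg
ZNF235: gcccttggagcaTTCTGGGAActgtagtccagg
ZNF235: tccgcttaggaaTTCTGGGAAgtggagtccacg
ZNF180: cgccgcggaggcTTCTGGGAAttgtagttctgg
ZNF71: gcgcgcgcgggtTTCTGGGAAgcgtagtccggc
The ZNF181 window lies at chr19:34734184-34734216 on the plus strand and the ZNF546 window at chr19:39997028-39997060 on the minus strand. The ZNF224 pair lies at chr19:44094248-44094280 and chr19:44094320-44094352, ZNF234 at chr19:44141516-44141548 and ZNF226 at chr19:44165033-44165065, all on the plus strand. On the minus strand lie the ZNF235 pair at chr19:44305095-44305127 and chr19:44305040-44305072 and the ZNF180 window at chr19:44500557-44500589, and ZNF71 has its window at chr19:56595220-56595252 on the plus strand. ZNF224, ZNF234, ZNF226, ZNF235 and ZNF180 are neighbours in 1 cluster. Other letters, each searched on both strands, were also frequent: the ETS core CCGGAAG stood in 41.1% of member promoters against 10.7% of all, and CCAATCA, likewise picked after seeing the promoters, in 27.2% against 7.28%. The pattern TTCNNNGAA, as read by STAT factors, stood in 34 member promoters (18.9% against 7.88%), and in 19 of those 34 the letters were TTCTGGGAA. ACTACAATT, part of the ZNF143 motif and overlapping the reverse of the windows above, stood in 1.67% against 0.37%, AAGATGGCG (YY1) in 5.0% against 1.85%, and GGGCGG (SP1) in 67.8% against 44.6%. The AP-1 letters TGANTCA stood in 5.56% of member promoters and 7.76% of all, CTCGCGAG (KAISO) in 0.56% and 1.06%, and GCGCATGCG (NRF1) in 2.78% and 2.10%. Members are coding genes, and the 15842 promoters of coding genes alone gave other shares. They were 1.09% for TTCTGGGAA, 14.2% for ETS, 8.70% for CCAATCA, 6.97% for STAT, 0.46% for ZNF143, 2.74% for YY1 and 58.5% for SP1. For AP-1 (5.75%) and NRF1 (2.76%) they were near those of the members, and for KAISO the share was 1.53%. A match describes letters and is not a binding site.

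The family was weakly expressed. Levels are given as deposited FPKM (fragments per transcript length and library size) where genes are compared, and otherwise as CPM (fragments in a library scaled to a common total by edgeR's TMM factors). Between 124 and 129 of the 223 members reached an FPKM of 1 in a library of the over-expression experiment and 132 to 144 in the time course. The median FPKM of the tested members was 2.23 to 2.37 and 2.46 to 3.27, against 12.7 to 12.9 and 10.4 to 11.7 for all coding genes tested. Libraries held 22.9 to 36.4 M and 12.6 to 52.3 M fragments, and the median tested member had 150.5 to 253.5 and 88 to 487 fragments. Basal epithelial markers (9 of 9) were at an FPKM of 1 or more in every library. Of 3 endothelial markers 2 were found in the tables, and they summed to at most 0.0153 FPKM. Of the others, 1 of 5 fibroblast markers and at most 2 of 5 blood markers reached 1, and the fibroblast sum in the time course ran from 17.65 to 78.2 FPKM, whose part in the results was not tested. LINC00520 itself had 5, 6 and 2 fragments in untransduced libraries and 1122 and 1031 in transduced ones.

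A test was possible for 130 members in the over-expression experiment and 151 in the time course, and for 125 in both. Of the rest, 66 and 51 had fragments but stayed below the filter, and 27 and 21 had none. Of the tested members, 4 and 7 reached an FPKM of 1 in libraries of 1 group alone, and such members entered the test through that group. How many of them were called was not counted. No fragment was counted for 20 members in any library, which allows up to 0.0573 to 0.239 CPM depending on the library. They were not spread evenly: 7 of the 27 members of the cluster at chr19:19779663-22952784 (hg19, as are all coordinates below) were at 0, among them ZNF208, ZNF257, ZNF676 and ZNF99. A further 5 of 10 in the cluster at chr19:56594035-57196248 were at 0, namely ZNF542, ZNF582, ZNF667, ZNF470 and ZNF835. ZNF536, a repressor of neuronal differentiation, was also at 0 throughout.

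Few members were abundant. In the over-expression experiment ZNF146 and ZNF580,ZNF581 had the highest FPKM, in ranges that overlap. ZNF580,ZNF581, small proteins with few fingers at chr19:56146176-56207132, stood at 41.5, 42.3 and 43.9 in untransduced and 33.4 and 35.0 in transduced libraries. ZNF146, a protein made of fingers alone (chr19:36665315-36729673), stood at 38.3, 38.3, 41.1, 42.2 and 41.1 in the same order. ZNF551,ZNF586,ZNF587,ZNF776 held 13.7 to 15.1, ZNF787 13.6 to 14.4 and ZNF428 11.5 to 13.7, ranges that overlap, so these 3 rows cannot be put in order. In the time course the first places went to ZNF121, reported to bind MYC, at 26.1 to 57.5 and ZNF460 at 36.1 to 55.7, with ZNF146 at 27.5 to 46.2. ZNF551,ZNF586,ZNF587,ZNF776 followed at 23.1 to 38.8 and the first ZNF562 row at 14.1 to 24.3 outside 12 h, where it stood a little lower. These ranges overlap as well.

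A minority of the family was called between LINC00520-transduced and untransduced cells, and the changes were small. In the transduced cells 13 members were higher and 22 lower of 130 tested, 10.0% and 16.9%, while 25.2% of all genes tested were higher and 24.8% lower. The median absolute log2 fold change was 0.14 both for members and for all genes tested. The median SE was 0.107 for members and 0.0542 for all genes, so the shares called rest on unlike precision. No member changed 2-fold, and 162 of the 12790 genes tested were called with a change of at least 2-fold. The median log2 fold change of the members was -0.05, against 0.00 over all genes tested. Without LINC00520 library 2 the median of the members was 0.01. KRAB members (6 higher and 14 lower of 91) and members without KRAB (3 and 4 of 23) had nearly the same median, -0.05 in each. ZNF genes on other chromosomes had 25 higher and 48 lower of 200, with a median of -0.05. Positions differed in their counts, which are given without a test. In the cluster at chr19:44010872-45004574, which holds the windows of ZNF224 to ZNF180 above, 6 members were lower and 1 higher of 14, with a median of -0.24. In the cluster at chr19:19779663-22952784, 3 were higher and none lower of 10, and 8 of 10 lay above 0. The cluster at chr19:52359056-54083803 had 4 higher and 2 lower of 25, and that at chr19:57702869-59033378 3 higher and 6 lower of 23. Members with TTCTGGGAA in the promoter were lower in 5 and higher in 1 of 15, with a median of -0.26, against 12 and 7 of 88 and a median of -0.04 in members without it; most of the first lie in that 1 cluster.

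ZNF358, a gene without KRAB (chr19:7581004-7586235), fell furthest. It stood at 8.39, 7.96 and 8.77 CPM in untransduced libraries and at 5.02 and 4.77 in transduced ones, a log2 fold change of -0.77 (SE 0.106, edgeR QL test with Benjamini-Hochberg adjustment, adjusted p = 1.8e-06). Every transduced library lay below every untransduced one, as the rule for naming required. ZNF419, the source of a minor histocompatibility antigen (chr19:57874879-58124087, a locus shared by 10 members), stood at 5.77, 6.23 and 6.57 CPM against 4.41 and 4.28 (log2 -0.50, SE 0.118, edgeR adjusted p = 0.0011). ZNF235 stood at 5.13, 5.53 and 5.25 CPM against 4.12 and 3.52 (log2 -0.47, SE 0.127). Other rows of its cluster that were called lower included ZNF222,ZNF223,ZNF284, with a log2 fold change of -0.41, ZNF224, a KRAB repressor of the aldolase A gene, with -0.30, ZNF234 with -0.29 and ZNF226 with -0.28. ZNF446, which carries a SCAN domain, changed by -0.48 and the KRAB gene ZNF181 by -0.39.

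The largest rises were of ZNF324,ZNF324B, at 2.51, 3.33 and 3.18 CPM against 4.08 and 4.23 (log2 0.49, SE 0.150), and of ZNF626,ZNF93, at 1.76, 2.13 and 1.499 CPM against 2.88 and 2.14 (log2 0.47, SE 0.196). Rises and falls were named only where the groups did not overlap, and the nearest values of the second row were 2.131 and 2.140 CPM. The second row holds ZNF93, a KRAB repressor of LINE elements, which cannot be told apart from ZNF626. ZNF544 was the rise with the smallest p, from 28.1, 26.3 and 26.8 to 34.5 and 34.9 CPM (log2 0.36, SE 0.0525, edgeR adjusted p = 4.5e-06). ZNF85 changed by 0.46, ZNF180 by 0.34 and ZNF480 by 0.31. ZNF180, the 1 member called higher in the cluster at chr19:44010872-45004574, went from 6.75, 6.76 and 7.01 to 8.69 and 8.60 CPM. ZNF324 alone, next to the merged ZNF324,ZNF324B row and closely related to it, had a log2 fold change of -0.25 that did not pass (edgeR adjusted p = 0.055). Whether fragments were shared between these rows was not tested.

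Among the well-studied members, ZNF175 (-0.39), a repressor of the HIV promoter, ZNF350 (-0.35), a partner of BRCA1, and ZNF580,ZNF581 (-0.35) were lower, and ZNF146 was higher by 0.09. ZNF91 (-0.14), a KRAB repressor of SVA elements, ZNF274 (0.00), which recruits SETDB1 to zinc finger genes themselves, the imprinted ZNF331 (-0.26), ZNF304 (-0.05) and the SCAN gene ZNF444 (-0.14) did not pass the test. ZNF331 passed without LINC00520 library 2 (-0.47, edgeR adjusted p = 0.013) and without untransduced library 1 (-0.30, edgeR adjusted p = 0.0427), and ZNF444 without the latter (-0.19, edgeR adjusted p = 0.0427). ZNF382, a KRAB repressor, had 3 to 10 fragments and was not tested. Calls rested in part on single libraries. Without LINC00520 library 2, 7 members were higher and 14 lower, and ZNF85 (0.32), ZNF175 (-0.27), ZNF181 (-0.29), ZNF235 (-0.36), ZNF446 (-0.38), ZNF350 (-0.33) and ZNF324,ZNF324B (0.46) no longer passed. Without LINC00520 library 1, 12 were lower, and ZNF222,ZNF223,ZNF284 (-0.26), ZNF224 (-0.26), ZNF350 (-0.37) and ZNF626,ZNF93 (0.24) were lost. Leaving out untransduced library 1 ended the calls of ZNF224 (-0.23), ZNF324,ZNF324B (0.35) and ZNF626,ZNF93 (0.44), leaving out library 3 that of ZNF626,ZNF93 (0.39), and ZNF146 (0.07 to 0.11) was lost without untransduced library 1 or 2 or either LINC00520 library. ZNF358, ZNF419, ZNF544, ZNF180 and ZNF480 passed without any 1 library. Of the members tested in the authors' deposited table, 2 of 165 members were called, ZNF358 (q = 0.00123) and ZNF546 (q = 0.0434), against 12.9% of all genes.

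**Figure D1:**
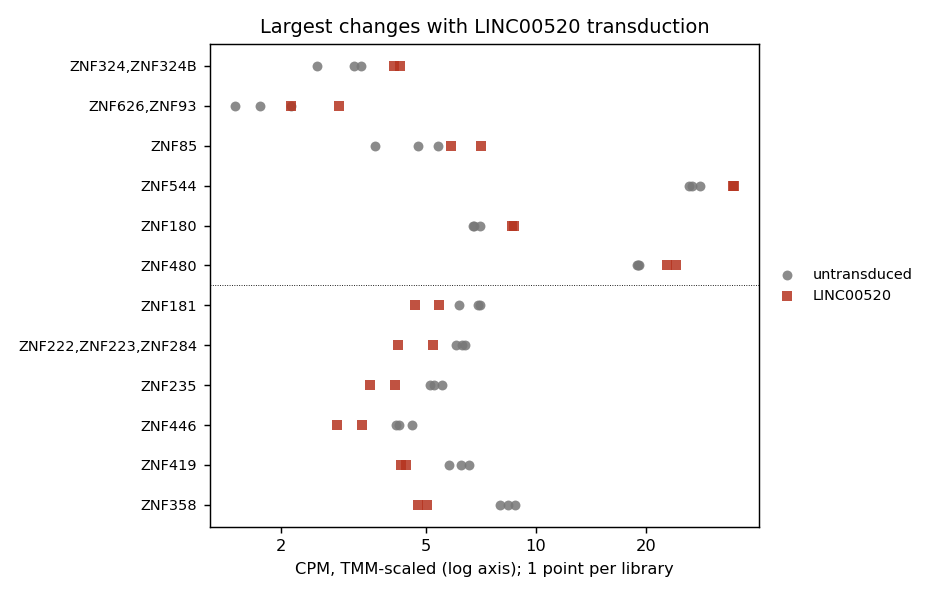
Level of the 6 largest rises and the 6 largest falls with LINC00520 transduction, in TMM-scaled CPM on a log axis, with 1 point per library (grey circles, 3 untransduced; red squares, 2 LINC00520). The 12 rows were picked among called members whose groups do not overlap, and the widest separation is that of ZNF358.

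In the time course the 12 h library stood apart for this family. At 12 h, 121 of 151 members (80.1%) lay below the 0 h library, with a median log2 fold change of -0.33, while 52.1% of all genes tested lay below 0 h, with a median of -0.03. The median of the members was -0.30 with RLE factors and -0.38 without TMM factors. The summed level of all members was 1860 CPM at 12 h, against 2325 at 0 h, 2475 and 2508 at 4 h and 2359 and 2421 at 36 h. For 77 of the 151 members (51.0%) the 12 h library held the lowest of the 6 values, against 14.9% of all genes. By edgeR only 1 member was called at this time, ZNF546, which was lower, and none was higher (backgrounds of 1.2% lower and 3.04% higher of all genes tested). The authors' deposited table called 7 of 169 members (4.14%) at 12 h against 0 h, and 7.01% of all genes. They were ZNF546, ZNF226, ZNF14, ZNF91, ZNF675, ZNF432 and the ZFP112,ZNF285A row, all lower. At an unadjusted p under 0.05 the edgeR counts were 27 lower (17.9%) and 0 higher, where 9.13% of all genes were lower and 9.90% higher. DESeq2 gave 14 and 0, and limma on log2(FPKM + 1) 16 and 0, none of them past the adjusted threshold with the last 2 tools. As 0 h and 12 h have 1 library each, time and library cannot be told apart, and the test takes its spread from the 4 h and 36 h pairs. In bulk RNA, fewer cells of a kind and less RNA per cell cannot be told apart either.

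**Figure D2:**
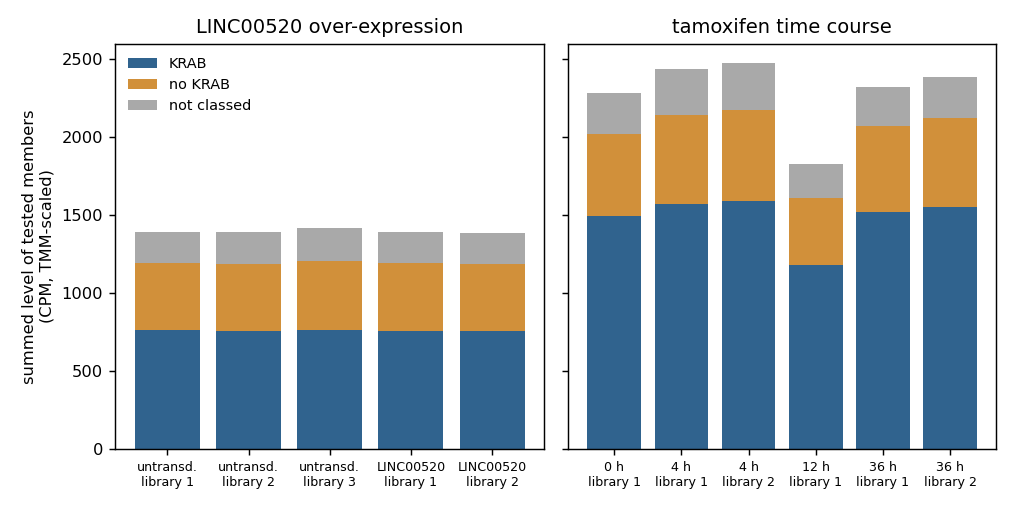
Summed level of the tested members in each library (130 in the over-expression experiment, 151 in the time course), in TMM-scaled CPM, split into members with a KRAB domain, without one and not classed. The 12 h bar is the lowest of the time course, with 1180 CPM in KRAB members against 1492 to 1585 in the other 5 libraries, and the 5 bars of the over-expression experiment are level; the experiments were scaled separately.

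The classes of members differed in these values, without a test of the difference. The median of KRAB members at 12 h was -0.39, and 62 of 113 (54.9%) were lowest in that library, against -0.10 and 7 of 22 (31.8%) for members without KRAB. Within the KRAB members the median was -0.19 with 0 to 9 fingers, -0.33 with 10 to 14 and -0.49 with 15 or more. In the cluster at chr19:36665315-38307940, 17 of 18 members lay below 0 h, with a median of -0.51. ZNF91, with 31 fingers found (chr19:23521419-23578269), went from 51.3 CPM at 0 h to 38.2 and 30.2 at 4 h, 26.1 at 12 h, and 49.3 and 51.6 at 36 h. The 12 h value was the lowest and the 36 h values lay on either side of that at 0 h. The difference between 12 h and 0 h did not pass (log2 -0.97, SE 0.251, edgeR adjusted p = 0.082). It passed without the filter on low counts (log2 -0.95), and the authors' deposited table called ZNF91 lower at 12 h. ZNF146 held 143.7 CPM at 0 h, 105.7 at 12 h and 155.6 to 173.0 at 4 h and 36 h. ZNF83 held 43.5 CPM at 0 h and 25.0 at 12 h, ZNF331 9.86 and 6.47, and ZNF460 167 and 133, none of which passed the test. ZNF genes on other chromosomes had a median of -0.17 at 12 h, and the other coding genes of chromosome 19 had one of 0.22.

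The base composition of the transcripts moved with the same comparison. The longest GENCODE transcript of the median member was 42.4% GC (139 of 156 tested members matched), of KRAB members 42.2%, of members without KRAB 59.8%, and of all tested coding genes 48.1%. Coding genes that are not members had a median log2 fold change at 12 h of -0.21 where the transcript was under 42% GC and of 0.23 where it was 55% or more. In the first range 93.4% of 61 members lay below 0 h, with a median of -0.47, against 72.1% of 2707 other coding genes. From 42% to 46% the medians were -0.31 in 36 members and -0.06 in other genes, from 46% to 50% -0.29 in 17 and 0.04, from 50% to 55% 0.13 in 7 and 0.18, and at 55% or more 0.02 in 14 and 0.23. Members thus lay below other genes of like composition in each range; the difference was not tested.

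**Figure D3:**
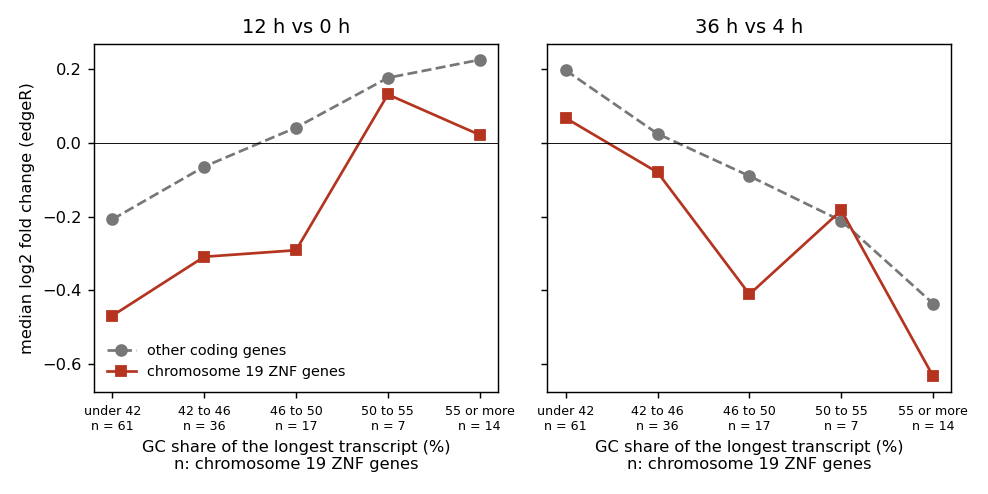
Median log2 fold change by GC share of the longest transcript, for chromosome 19 ZNF genes (red squares) and other coding genes (grey circles), at 12 h against 0 h (left) and at 36 h against 4 h (right). Other genes run from -0.21 to 0.23 on the left and from 0.20 to -0.44 on the right, and the members lie below them in all ranges but that of 50% to 55% on the right, where 7 members stand at -0.18 and other genes at -0.21.

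Against the 0 h library, the 4 h libraries showed 0 higher and 2 lower members of 151 by edgeR, where 3.15% and 3.09% of all genes were higher and lower. Unadjusted p-values under 0.05 numbered 19 higher (12.6%) and 10 lower (6.62%), where 11.3% and 12.7% of all genes had one. After adjustment DESeq2 gave 2 and 2 and limma on log2(FPKM + 1) 0 and 0. The authors' deposited table called 8 of 172 members (4.65%) at 4 h against 0 h, and 8.97% of all genes. ZNF546 was lower there, and ZNF574, ZNF583, ZNF71, ZNF584, ZNF45, ZNF324 and the ZNF324,ZNF324B row were higher. Without 4 h library 1 the edgeR counts were 18 and 12, and without 4 h library 2 they were 7 and 3. Without library 1, ZNF91 (-0.765, edgeR adjusted p = 0.0117) and ZNF304 (0.61, edgeR adjusted p = 0.0493) also passed. Both members called by edgeR with all libraries, ZNF546 and ZNF493, are KRAB genes with 18 or more fingers found. ZNF493 was not called at 4 h in the authors' deposited table. ZNF546 (chr19:40502943-40523514, 22 fingers) went from 11.3 CPM at 0 h to 4.83 and 5.52 at 4 h, 4.14 at 12 h, and 6.09 and 7.40 at 36 h. All later libraries lay below that of 0 h. Its log2 fold change was -1.12 at 4 h (SE 0.256, edgeR adjusted p = 0.043) and -1.45 at 12 h (SE 0.312, edgeR adjusted p = 0.043). It did not pass at 36 h (-0.76, edgeR adjusted p = 0.080), nor with DESeq2 or limma. The authors' deposited table also called it at 4 h (q = 0.00603) and 12 h (q = 0.00083). ZNF493 (chr19:21541735-21611949, 18 fingers) went from 13.2 CPM at 0 h to 6.85 and 4.71 at 4 h, 6.50 at 12 h, and 6.67 and 5.98 at 36 h. It was called at 4 h (log2 -1.19, SE 0.281, edgeR adjusted p = 0.048) and at 36 h (-1.05), and not at 12 h (-1.02, edgeR adjusted p = 0.154).

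At 36 h, 3 members were higher and 4 lower than at 0 h, where 9.99% and 9.36% of all genes were. The median of the members was -0.07, and it was 0.00 with RLE factors and -0.42 without TMM factors. ZNF699, the counterpart of the fly gene hangover (chr19:9405986-9415795), rose from 3.77 to 9.52 and 9.39 CPM (log2 1.33, SE 0.299, edgeR adjusted p = 0.019). ZNF426, which acts on a herpesvirus transactivator, rose by 0.88 and ZNF558, a KRAB repressor of the mitochondrial gene SPATA18, by 0.81. ZNF738 (-1.08), ZNF493 (-1.05), ZNF527 (-1.03) and ZNF574 (-0.78) were lower. Leaving out either 36 h library gave 0 higher and 0 lower. The log2 fold changes of the 7 were then 0.71 to 1.34 in the rises and -1.24 to -0.74 in the falls, with edgeR adjusted p from 0.0529 to 0.335. Scaling by library totals, without TMM factors, gave 1 higher and 17 lower. That scaling moved the median of all genes from -0.08 to -0.43 at 36 h against 0 h, and from -0.04 to -0.29 at 36 h against 4 h. The 4 h, 12 h and 36 h contrasts share the 0 h library. The authors' deposited table called 3 of 170 members (1.76%) at 36 h against 0 h, and 16.3% of all genes. They were ZNF558, ZNF699 and ZNF160, all higher.

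**Figure D4:**
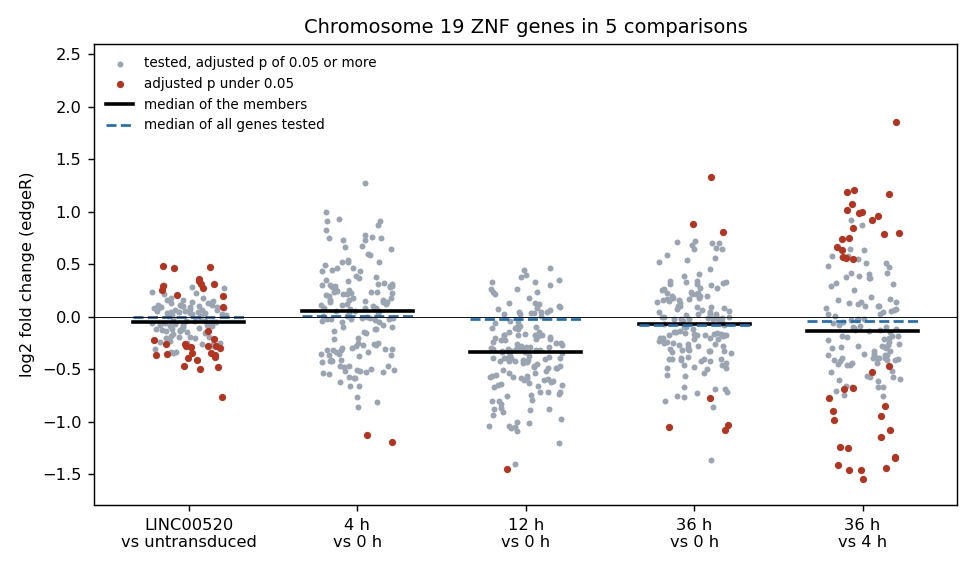
Log2 fold change of each tested member in the 5 comparisons (130 members for LINC00520, 151 for each time contrast), in red where the edgeR adjusted p was under 0.05. Black bars are the medians of the members and dashed blue bars those of all genes tested. They part most at 12 h against 0 h (-0.33 and -0.03), and the widest spread of called members is at 36 h against 4 h.

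The comparison with 2 libraries on each side, 36 h against 4 h, showed 20 members higher and 20 lower of 151, or 13.2% each, where 18.8% of all genes were higher and 20.5% lower. Of these, 17 changed at least 2-fold, and 3110 of the 15572 genes tested were called with such a change. The median of the members was -0.13. Scaling by library totals gave 7 higher and 43 lower. KRAB members had 16 higher and 12 lower of 113, and members without KRAB 2 and 6 of 22. Among KRAB members with 15 or more fingers, 6 were higher and 1 lower of 42. In the terminal cluster at chr19:57702869-59033378, 11 members were lower and 2 higher of 29, with a median of -0.46, and in the cluster at chr19:56594035-57196248 3 of 4 were lower. In the cluster at chr19:52359056-54083803, 6 were higher and 1 lower of 26, and at chr19:9251086-9896957 3 were higher and none lower of 8.

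ZNF699 had the largest rise. It went from 2.23 and 2.97 CPM at 4 h to 9.52 and 9.39 at 36 h (log2 1.85, SE 0.255, edgeR adjusted p = 0.0013), with 3.77 at 0 h and 2.05 at 12 h. Both 36 h libraries lay above the other 4. ZNF83 (chr19:53104526-53193886), a long row of fingers without KRAB, went from 35.1 and 27.2 to 68.9 and 74.9 CPM (log2 1.21, SE 0.184, edgeR adjusted p = 0.0020). ZNF160, a KRAB gene reported to restrain TLR4 (chr19:53569868-53606687), went from 11.5 and 12.1 to 28.5 and 24.5 CPM (log2 1.17). ZNF558 (chr19:8920382-8942975) went from 11.9 and 13.9 to 27.4 and 31.3 CPM (log2 1.18). ZNF266 (2.54 and 2.84 to 5.51 and 5.88 CPM) and ZNF426 (6.33 and 6.79 to 12.9 and 13.9 CPM) lie in the locus chr19:9523075-9811452, whose 7 coding rows are all members. ZNF274 changed by 0.96, from 7.42 and 8.53 to 15.4 and 15.8 CPM (edgeR adjusted p = 0.0072), ZNF580,ZNF581 by 0.78 and ZNF91 by 0.56.

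The largest fall was that of ZNF574, which lacks KRAB (chr19:42572629-42585717). It went from 26.3 and 25.2 CPM at 4 h to 9.08 and 8.54 at 36 h (log2 -1.54, SE 0.187, edgeR adjusted p = 0.00071), with 15.2 at 0 h and 14.6 at 12 h. The 4 h values were the highest of the course and the 36 h values the lowest. ZNF428 (chr19:44100544-44143991), in which a single finger was found, went from 11.7 and 14.6 to 4.88 and 4.65 CPM (log2 -1.46, SE 0.224). ZNF584 (chr19:58913180-58929690) went from 21.5 and 21.1 to 7.44 and 8.35 CPM (log2 -1.44, SE 0.194). ZNF324 (chr19:58978463-58984781) and the ZNF324,ZNF324B row before it (chr19:58962971-58969199) had log2 fold changes of -1.41 and -1.35. ZNF527 went from 6.59 and 6.45 to 2.22 and 3.04 CPM (log2 -1.34). ZNF544 (-1.24), ZNF787 (-1.15), ZNF419 (-0.98), ZNF180 (-0.77) and ZNF551,ZNF586,ZNF587,ZNF776 (-0.47) were also lower. ZNF304 (-0.29), ZNF350 (0.64), ZNF224 (0.08), ZNF175 (0.19), ZNF331 (-0.06), ZNF146 (-0.10) and ZNF444 (-0.59) did not pass the test.

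**Figure D5:**
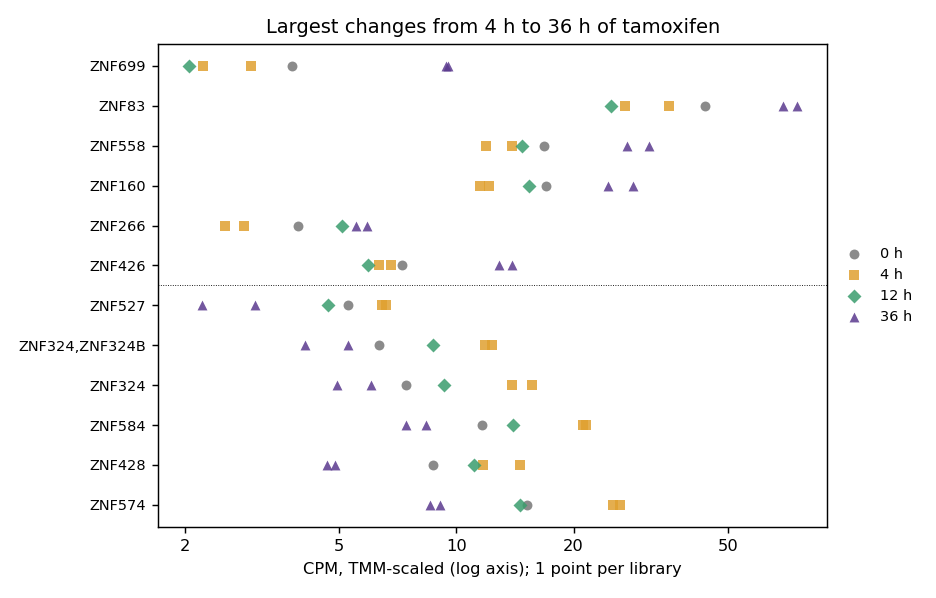
Level of the 6 largest rises and the 6 largest falls from 4 h to 36 h in all 6 time-course libraries, in TMM-scaled CPM on a log axis, with 1 point per library (circle, 0 h; squares, 4 h; diamond, 12 h; triangles, 36 h). In every row the 0 h library lies between the 4 h and the 36 h libraries, as for ZNF574, at 15.2 between 25.2 to 26.3 and 8.54 to 9.08. The rows were picked for their difference between 4 h and 36 h, and the share of all genes with this order was not counted.

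Composition moved with this comparison too, in the reverse order. Coding genes outside the family had a median of 0.20 under 42% GC and of -0.44 at 55% or more. Members under 42% GC had 10 higher and 3 lower of 61, with 29.1% higher and 11.4% lower among other coding genes in that range. At 55% or more, 0 members were higher and 5 lower of 14, and 9.85% and 37.5% of the other coding genes were. ZNF574 (60.9% GC), ZNF428 (61.3%), ZNF324 (58.8%) and ZNF584 (55.3%) lie in that last range, and ZNF699 (40.7%), ZNF83 (41.7%) and ZNF160 (41.7%) in the first. The large rises ZNF558, ZNF426 and ZNF266 lie between 42% and 55%, and so does the large fall ZNF527. The merged ZNF324,ZNF324B row had no matched transcript. What part composition has in these calls was not tested. Leaving out 36 h library 1 gave 7 higher and 10 lower, and leaving out 36 h library 2 gave 9 and 10. ZNF266 (1.12 and 1.03), ZNF580,ZNF581 (0.81 and 0.75) and ZNF91 (0.60 and 0.53) did not pass without 36 h library 1 or 2, nor did ZNF527 (-1.10) without library 1. The authors' deposited table called 24 of 171 members between these times, and 28.1% of all genes.

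Calls of the 2 experiments overlapped in 10 of the 125 members tested in both. That is 29.4% of the 34 called with LINC00520, where 28.8% of the 125 were called between 4 h and 36 h, and 27.8% of the 36 called between those times, where 27.2% of the 125 were called with LINC00520. The overlap is thus near the share called in any case. Over all 12352 genes tested in both, the shared calls were 45.7% and 56.1% of the lists, against 41.0% and 50.4% of the genes tested, and 37.2% of them had the same sign. Of the 10 members, ZNF714 (0.25 and 0.56) and ZNF419 (-0.50 and -0.98) had the same sign in both, which is 20.0%, and no test of the signs was made. ZNF83, ZNF226, ZNF558 and ZNF580,ZNF581 were lower with LINC00520 and higher at 36 h, and ZNF180, ZNF324,ZNF324B, ZNF544 and ZNF584 the reverse.

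A list of 37 genes, 35 of them tested, held the cofactors through which KRAB proteins act and counterparts such as histone demethylases. Counts over the list pool both kinds. TRIM28, the KAP1 scaffold, was among the most abundant at 309 ± 6.35 CPM (SD, n = 3) in untransduced and 342 ± 11.8 CPM (SD, n = 2) in transduced cells (log2 0.15, edgeR adjusted p = 0.000246). SETDB1 changed by -0.13, from 77.5 ± 2.68 (SD, n = 3) to 70.8 ± 0.258 CPM (SD, n = 2). In all, 12 of the 35 were higher with LINC00520 and 11 lower, where 25.2% and 24.8% of all genes tested were. They were led by UHRF1 (0.77), a factor in the maintenance of DNA methylation, the histone methyltransferase SUV39H1 (0.58) and the DNA methyltransferase DNMT1 (0.51), and by the histone demethylases KDM4B (-0.47) and KDM4A (-0.34). Between 4 h and 36 h, 6 were higher and 9 lower, where 18.8% and 20.5% of all genes were. TRIM28 fell from 315 ± 31.7 to 180 ± 2.56 CPM (SD, n = 2 each; log2 -0.80, edgeR adjusted p = 0.005), UHRF1 changed by -2.11, MBD3 by -1.09 and the DNA methyltransferase DNMT3A by 1.74. ATF7IP, a partner of SETDB1, changed by 1.03. SETDB1 itself did not pass (log2 0.14, edgeR adjusted p = 0.522). Against 0 h, 1 gene of the list was lower and none higher at 4 h (ATF7IP, -1.42), with backgrounds of 3.09% and 3.15%. None passed at 12 h, where 1.2% of all genes were lower and 3.04% higher. At 36 h, 1 was higher and 3 lower (DNMT3A 1.15, UHRF1 -1.91, MBD3 -0.79 and TRIM28 -0.68), where 9.99% and 9.36% of all genes were. At 12 h, where most zinc finger genes lay below 0 h, TRIM28 held 344 CPM against 288 at 0 h, a difference that did not pass (log2 0.26, edgeR adjusted p = 0.564).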

How the data were processed

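PolyA RNA-seq was aligned to hg19 with TopHat and quantified with Cuffdiff after base calling with CASAVA 1.4, per the submitters' processing notes. Versions of TopHat and Cuffdiff, the gene annotation and whether counting used strand are not given in the sources used here. Per the file headers, the deposited tables hold an estimated count of fragments and an FPKM per row and library, and calls for each pair of conditions with their p-value, q-value and log2 fold change. The time-course log2 column held values too large for that scale, so this deposited column was treated as a score and read for its sign alone. Of 13 samples 11 matched columns by name (replicates numbered from 0 in the files and from 1 in the titles), and 7 further libraries that match no label were not used. LINC00520 was read from the row linc-TBPL2-2.

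Estimated counts were rounded (88.4% and 100% of member values were exactly whole as deposited, with no tolerance). Rows with FPKM of 1 or more in at least 2 (over-expression) or 1 (time course) libraries and a status of OK were fitted, 12790 and 15572 in all. edgeR 4.0.16 (TMM, quasi-likelihood F test, 1 coefficient per group, 2-sided, Benjamini-Hochberg over all rows, threshold 0.05) was the main test. SE is the absolute log2 fold change over the square root of F. The common coefficient of variation was 0.0249 (3 residual degrees of freedom) and 0.162 (2). On simulated data, 2-fold changes were recovered for 99% of genes for LINC00520 (12790 genes) and 56% for 36 h against 4 h (15572), and 4-fold changes for 100% and 94%. limma 3.58.1, DESeq2 1.42.0, other scalings and filters, left-out libraries and a replicate term were alternatives.

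Members, lists and rules were chosen with earlier results of these data known. Named members were, per comparison, the 6 largest rises and falls among called members with FPKM of 1 or more throughout the higher group and groups that did not overlap, the 5 highest by FPKM per experiment and 13 well-studied genes; ZNF234, ZNF226, ZNF714 and members named for fragments at 0, composition or shared calls were chosen after their values were seen. Clusters begin where the gap to the previous member exceeds 250 kb. Loci are the authors' bundles: 79 members share one with another member. Close paralogs can exchange fragments, and without strand antisense fragments cannot be told apart.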

Additional observations from a re-analysis of the deposited data

Results flagged for a closer look

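For 36 of the 40 members called between 36 h and 4 h by the edgeR QL test, the change from the shared 0 h library had opposite signs at the 2 times, 16 of them higher at 36 h and 20 lower. Among them are the 12 members named for the largest rises and falls. The 6 with a positive log2 difference, below 0 h at 4 h and above it at 36 h, were ZNF699 (1.85), ZNF83 (1.21), ZNF558 (1.18), ZNF160 (1.17), ZNF266 (1.07) and ZNF426 (1.02). The 6 with a negative one, above 0 h at 4 h and below it at 36 h, were ZNF574 (-1.54), ZNF428 (-1.46), ZNF584 (-1.44), ZNF324 (-1.41), ZNF324,ZNF324B (-1.35) and ZNF527 (-1.34). The single 0 h library thus lay between the pairs in each of the 12. These members were picked for a large difference between 4 h and 36 h, which makes such a place for 0 h more likely. The share of all called genes with opposite signs was not counted, so neither count is read as a trait of the family. Of the 12, ZNF266 did not pass without either 36 h library, with 1.12 and 1.03, and ZNF527 did not pass without 36 h library 1, with -1.10.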

How the results depend on the processing

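No called result of a named member reversed under any alternative run, but many lost their call. Of 42 such results, 13 no longer passed with DESeq2, 12 with limma on log2(FPKM + 1) and 15 on log2(FPKM + 0.1). With LINC00520, the rows lost with DESeq2 were ZNF146, ZNF224, ZNF350, ZNF446, ZNF324,ZNF324B and ZNF626,ZNF93. Counts of called members are given as higher and lower. With LINC00520 they were 6 and 9 by DESeq2, 8 and 14 by limma on log2(FPKM + 1), 7 and 14 on log2(FPKM + 0.1), and 7 to 13 and 12 to 22 with 1 library left out. At 4 h against 0 h they were 1 and 2 with RLE factors, 8 and 5 without a filter, 1 and 1 with filterByExpr, 2 and 2 by DESeq2, 0 and 1 without TMM factors, 0 and 0 by either limma fit, and 7 to 18 and 3 to 12 with 1 library left out. At 12 h, 3 were lower without a filter and 0 with filterByExpr, DESeq2 or limma. At 36 h against 0 h they were 1 and 17 without TMM factors, 4 and 2 with RLE factors, 5 and 7 without a filter, 4 and 2 with filterByExpr, 4 and 0 by DESeq2, 1 and 0 by limma on log2(FPKM + 1), 0 and 0 on log2(FPKM + 0.1), and 0 and 0 with either 36 h library left out. At 36 h against 4 h they were 7 and 43 without TMM factors, 18 and 11 by DESeq2, 13 and 16 by limma on log2(FPKM + 1), 11 and 14 on log2(FPKM + 0.1), and 7 to 26 and 10 to 26 with 1 library left out. The causes were not tested.

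Deviations of same-numbered libraries from their group means had correlations of -0.028 and -0.041 in the over-expression experiment and 0.078 in the time course. With so few libraries these values cannot decide whether the numbers pair the libraries. With a replicate block the counts were 13 and 19 for LINC00520 and 21 and 21 at 36 h against 4 h, and ZNF626,ZNF93 (0.39) lost its call. With a cluster gap of 100 kb or 500 kb, 13 or 10 clusters held 5 or more members, against 11. Over all genes tested, 56% of simulated 2-fold changes were recovered at 36 h against 4 h, so smaller changes can be missed. The median SE in that comparison was 0.22 for members and 0.21 for all genes. With LINC00520 it was 0.107 for members and 0.0542 for all genes.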

Other observations

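The locus at chr19:57702869-57856528 (hg19) had different levels in the 2 experiments, whose tables were normalized separately and whose cells differ (parental MCF10A and MCF10A-Src), so no test is given. ZNF460 held 0.285 to 0.444 FPKM in the 5 over-expression libraries and 36.1 to 55.7 in the 6 time-course libraries, 0 h included, a gap of 81.4-fold between the highest of the first and the lowest of the second. ZNF543, in the same locus, held 0.609 to 0.915 and 4.67 to 8.31 FPKM. ZNF264 (0.913 to 1.29 and 3.59 to 7.33), ZNF805 (0.417 to 0.564 and 1.72 to 4.84) and the antisense lincRNA rows linc-ZNF264-AS (0.612 to 0.832 and 7.49 to 17.5) and linc-ZNF460-AS (0.0981 to 0.255 and 1.09 to 1.52) also stood higher in MCF10A-Src. AURKC, the remaining coding row there, did not, with 0.265 to 0.670 and 0.0536 to 0.558. Elsewhere in the family ZNF121 alone had a gap of 4-fold or more, 5.57 to 6.32 and 26.1 to 57.5 FPKM. Such gaps were found in 3 of 137 members (2.19%) and 198 coding genes (1.82%) with FPKM of 1 or more in all libraries of an experiment.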
